A study of Mus musculus with 6 samples.

Results

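The miR-21 family was followed in small RNA libraries of the mouse renal cortex. Its members were chosen by name and are mmu-miR-21a-5p, mmu-miR-21a-3p, mmu-miR-21b and mmu-miR-21c (written without the prefix from here on), 4 of the 1900 distinct mature miRNA names in the deposited count tables. Each has 1 row per table, and all 4 passed the filter on low counts that left 460 names for testing. The libraries came from 6 C57BL/6 mice, all kept for 8 weeks on a diet high in fat and cholesterol and with added bile salt (labelled HF/HC/HS/BA). The HS part of that label, which all 6 mice share, is not spelled out here. In 3 mice the diet contained tofogliflozin, an inhibitor of the renal glucose transporter SGLT2, and 3 mice received the diet without it. Mice on normal chow are not analysed here, so levels are set against the diet-only mice and not against a healthy kidney. The sources used here do not give the age and sex of the mice or the dose of the drug.

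miR-21 is cut from a primary transcript that overlaps the 3′ end of Vmp1, a gene of autophagosome formation. It is known as a miRNA raised in injured tubules and in renal fibrosis, where TGF-β signalling increases it, and its described targets include Pdcd4 and Ppara, the second encoding the lipid-oxidation regulator PPARα. A hairpin yields a 5p and a 3p arm, of which one is usually kept in the silencing complex. A miRNA recognises its targets mainly through the seed, bases 2 to 8 from the 5′ end.

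The mature sequences are shown because they tell which members have a seed in common and how far their names can be told apart by reads. They are from RefSeq (GRCm38.p6), 5′ to 3′, with the seed in capitals.
miR-21a-5p: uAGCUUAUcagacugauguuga
miR-21c: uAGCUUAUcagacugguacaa
miR-21b: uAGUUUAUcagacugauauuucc
miR-21a-3p: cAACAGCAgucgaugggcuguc
miR-21a-5p and miR-21c have the same seed, and no other of the 1679 mature mouse sequences in that RefSeq table has it. They are identical over the first 15 bases and then differ at 5 of the 21 positions compared. Counted from 1 at the 5′ end of miR-21a-5p, the substitutions in miR-21c are A16G, G18A, U19C, U20A and G21A. miR-21b differs at 4 of 22 positions, C4U, G18A, G21U and A22C. The first of these lies in the seed, so miR-21b does not share the miR-21a-5p seed despite its name. The seed of miR-21a-3p is unlike the others and was found in no other mature sequence of the table. That table holds fewer sequences than the 1900 names counted, so the seeds of names outside it were not checked.

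The hairpins lie on different chromosomes of GRCm38, the build of mm10. Mir21a (chromosome 11, 86584067 to 86584158, minus strand) lies within an annotated exon of Vmp1 that the GENCODE M21 annotation marks as UTR. Mir21b is at chromosome 3, 29636744 to 29636851 on the plus strand, in an intron of Egfem1. Mir21c (chromosome 8, 128278148 to 128278225, minus strand) overlaps no other annotated gene. The nearest one, Nrp1, lies 80379 bases away.

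Libraries held 6643638 to 22886200 counts when each mature name was counted once, the fewest in tofogliflozin replicate 2. That library stood apart from the other 5 on the principal component with the most variance (52.0%). It also had the highest hepatocyte miR-122-5p (245 CPM, against 40.7 to 78.6 CPM in the other 5 libraries) and the lowest summed smooth muscle and fibroblast miRNAs (32665 CPM, against 53840 to 59773 CPM). That sum was mostly miR-143-3p, with a mean of 51452 CPM, against 876 CPM for miR-199a-3p, the next member. The family's results are therefore given with and without it. CPM is the count scaled to library size after a TMM adjustment for libraries of different makeup. All 11 kidney tubule miRNAs checked against the tissue label had counts in every library, and together they reached 223658 to 259389 CPM with tofogliflozin and 237224 to 253350 CPM on the diet alone.

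miR-21a-5p made up nearly the whole family, 99.4% of its counts in every library, and ranked 13 among all mature names by mean CPM. It stood at 19819.5, 27611 and 14373 CPM in tofogliflozin replicates 1, 2 and 3, against 27770.4, 23365 and 23671 CPM in diet-only replicates 1, 2 and 3. Tofogliflozin replicates 1 and 3 were below every diet-only mouse, while tofogliflozin replicate 2 lay within their range, so the groups overlapped. Set against the diet-only mean, the tofogliflozin mice were at 79.5%, 111% and 57.6%.

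As a share of all counts, miR-21a-5p took 1.95%, 2.79% and 1.51% of the tofogliflozin libraries and 2.76%, 2.24% and 2.39% of the diet-only libraries. Exact binomial intervals (95%) around these shares were narrow, for example 1.94% to 1.95% for tofogliflozin replicate 1 and 2.77% to 2.80% for replicate 2, so the mice differed by more than counting error. The tables hold reads without molecular identifiers, and such intervals cover counting error only. The mean share was 2.08% ± 0.650 with tofogliflozin and 2.46% ± 0.266 on the diet alone (SD, n = 3 each; exact 2-sided permutation p = 0.5), a difference of -0.382 percentage points. This difference was -0.735 without tofogliflozin replicate 2 (exact permutation p = 0.1, the smallest that 2 against 3 mice allow) and -0.0958 without tofogliflozin replicate 3. By rank within a library, miR-21a-5p was at 15, 13 and 17 with tofogliflozin and at 13 in each of the 3 diet-only libraries.

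The miRNAs next to it in the order of mean CPM were let-7i-5p (34321 CPM) and let-7a-5p (32793 CPM) above, and miR-378a-3p (22203 CPM) and miR-30a-5p (21131 CPM) below. The family member averaged 22768 CPM over the 6 libraries, and its distance to miR-378a-3p and miR-30a-5p was smaller than its own spread between mice. let-7i-5p and let-7a-5p were above it in every library.

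**Figure D1:**
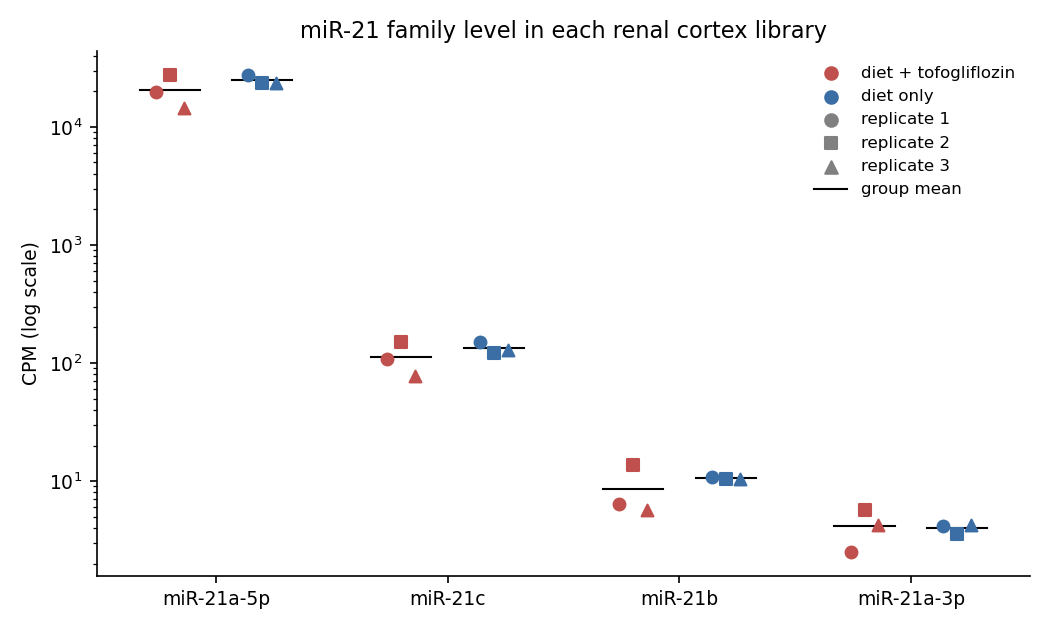
CPM of each family member on a log scale, 1 point per library, with diet + tofogliflozin left of diet only and bars at the group means. miR-21a-5p lies at 14373 to 27770.4 CPM, while miR-21a-3p lies at 2.51 to 5.67 CPM, and tofogliflozin replicate 2 (squares) is the highest tofogliflozin library for every member.

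The other members were far less abundant, and the order was the same in every library, with miR-21c above miR-21b and miR-21b above miR-21a-3p. miR-21c stood at 109, 152 and 78.1 CPM with tofogliflozin and at 152, 122 and 129.6 CPM on the diet alone, rank 130 by mean CPM. The order of the mice was that of miR-21a-5p, with tofogliflozin replicate 3 lowest and tofogliflozin replicate 2 and diet-only replicate 1 highest. miR-21b stood at 6.36, 13.7 and 5.70 CPM with tofogliflozin and at 10.8, 10.3 and 10.5 CPM on the diet alone, rank 255. Its diet-only values were close together, and the tofogliflozin values lay on both sides of them.

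miR-21a-3p, the other arm of the miR-21a hairpin, rested on few reads. It had 34, 38 and 77 reads in the tofogliflozin libraries and 94, 49 and 65 reads in the diet-only libraries, which gave 2.51, 5.67 and 4.26 CPM and 4.14, 3.58 and 4.22 CPM. Its lowest and highest values were both in tofogliflozin mice. Its mean was 4.15 ± 1.58 CPM with tofogliflozin and 3.98 ± 0.348 CPM on the diet alone (SD, n = 3 each).

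Whether tofogliflozin changes the family was tested with edgeR over all 460 names, as tofogliflozin over diet only. None of the 4 members passed an adjusted p of 0.05, as was the case for all tested miRNAs (0 of 460, or 0%; smallest adjusted p = 0.387). At an unadjusted p under 0.05, edgeR had 23 miRNAs (5%) and 0 members. By DESeq2 there were 2 calls (0.435%), both outside the family, and by limma-voom 0. For each of the 4 members the groups overlapped, while 55 of 460 miRNAs (12%) had groups apart from each other.

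miR-21a-5p averaged 20601 ± 6654 CPM with tofogliflozin and 24935 ± 2460 CPM on the diet alone (SD, n = 3 each). On the log2 scale the fold change came to -0.28 ± 0.22 (SE) by edgeR's quasi-likelihood test (adjusted p = 0.873; exact permutation p = 0.3), with a 95% interval of -0.79 to 0.23. Levels between 0.580 and 1.18 times those of diet-only mice thus lay inside the interval. In bulk tissue, fewer cells with the miRNA and less of it per cell cannot be told apart.

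miR-21c had a log2 fold change of -0.26 ± 0.24 and miR-21b of -0.33 ± 0.34, with adjusted p = 0.877 for both in edgeR's test. miR-21a-3p was at 0.03 ± 0.32 (SE; adjusted p = 0.989 in edgeR's test), with an interval of -0.72 to 0.78, and that of miR-21b was -1.11 to 0.46. The value of miR-21a-3p was below 0 with limma-voom and with a replicate block. Among all tested miRNAs 234 were below 0 (50.9%), and 3 of the 4 members were, of which miR-21a-5p and miR-21c may share reads.

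**Figure D2:**
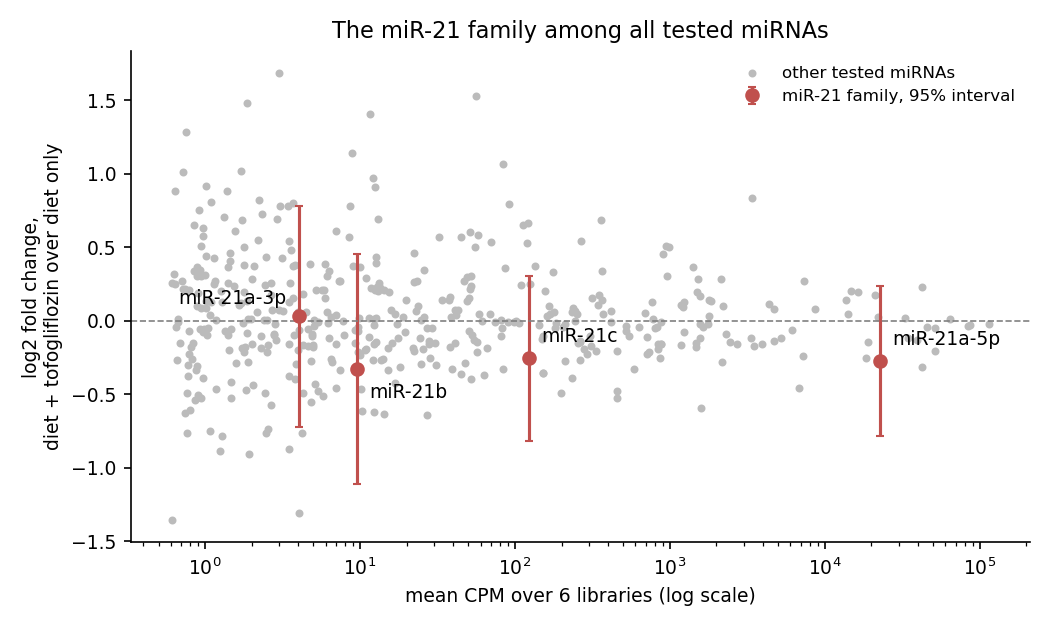
Log2 fold change (diet + tofogliflozin over diet only) against mean CPM on a log scale for the 460 tested miRNAs. The family members, in red with 95% intervals, run from -0.33 for miR-21b to 0.03 for miR-21a-3p, and every interval includes 0.

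The value of miR-21a-5p depended on which tofogliflozin mouse was in the comparison. Without tofogliflozin replicate 2 its log2 fold change was -0.54 ± 0.15 (SE; unadjusted p = 0.00837, adjusted p = 0.521 by edgeR). In those 5 libraries its groups did not overlap, which was so in this direction for 58 of 460 miRNAs (12.6%). Without tofogliflozin replicate 3 it was at -0.04 ± 0.17. Leaving out tofogliflozin replicate 1 gave -0.19, and leaving out a diet-only mouse gave -0.30 to -0.17.

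The values of the paralogs depended on the same libraries. Without tofogliflozin replicate 2, miR-21b was at -0.80 ± 0.18 (adjusted p = 0.362 by edgeR) and miR-21c at -0.53 ± 0.18 (adjusted p = 0.827 by edgeR), and without tofogliflozin replicate 3 they were at -0.07 ± 0.33 and -0.02 ± 0.20. The 3p arm was at 0.35 ± 0.30 without tofogliflozin replicate 1 and at -0.22 ± 0.29 without tofogliflozin replicate 2. All 4 members were then below 0, as were 258 of 488 tested miRNAs (52.9%). In these 5 libraries 3 of the 4 members were below 0 at an unadjusted p under 0.05 by edgeR. Over all tested miRNAs this was so for 13 of 488 (2.66%), with the 3 members among them. These 3 (miR-21a-5p, miR-21b and miR-21c) are not certain to be separate results, as the names may share reads. By edgeR, 0 of 488 (0%) passed an adjusted p of 0.05. Tofogliflozin replicate 2 was set aside after the data were seen. It was the highest tofogliflozin library for every member, so leaving it out lowers all 4 values. The count of 3 members is therefore no separate evidence of a change in the family.

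**Figure D3:**
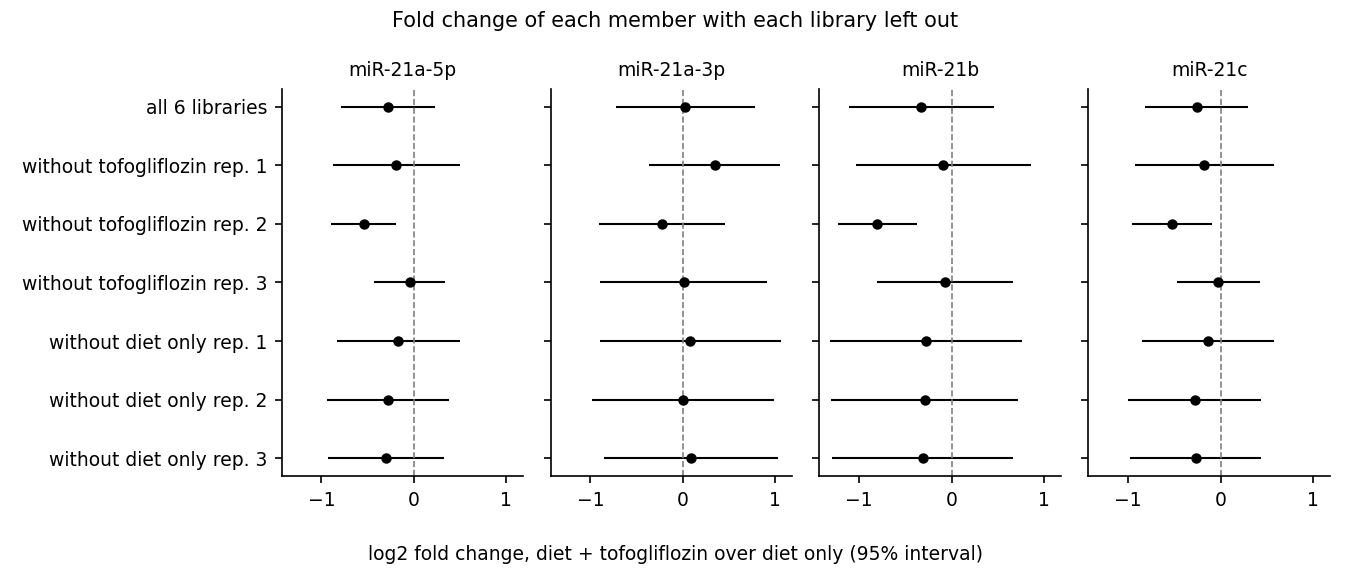
Log2 fold change (diet + tofogliflozin over diet only) of each member by edgeR, with 95% intervals, for all 6 libraries and with each library left out. miR-21a-5p is lowest without tofogliflozin replicate 2 (-0.54) and nearest to 0 without tofogliflozin replicate 3 (-0.04).

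The arms of the miR-21a hairpin were compared next. For each 3p read there were 7882, 4872 and 3376 reads of the 5p arm in the tofogliflozin libraries and 6711, 6521 and 5605 in the diet-only libraries. The 3p arm made up 0.0127%, 0.0205% and 0.0296% of the reads of both arms with tofogliflozin, against 0.0149%, 0.0153% and 0.0178% on the diet alone. The exact 95% interval of tofogliflozin replicate 3 (0.0234% to 0.0370%) lay above those of tofogliflozin replicate 1 (0.00878% to 0.0177%) and of all 3 diet-only libraries, whose upper bounds were 0.0182%, 0.0203% and 0.0227%. The mouse with the least miR-21a-5p thus had the largest share of the 3p arm, and the mouse with the smallest share was in the same group. This share has miR-21a-5p in its denominator, and the 3p arm of tofogliflozin replicate 3 was at 107% of the diet-only mean. Tofogliflozin replicate 2, at 27611 CPM of miR-21a-5p, had the next largest share (0.0205%).

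The groups were not told apart by arm use. The log2 ratio of 5p to 3p was 12.3 ± 0.602 with tofogliflozin and 12.6 ± 0.141 on the diet alone (SD, n = 3 each), a difference of -0.32 ± 0.33 (SE; adjusted p = 0.918 by limma over 74 hairpins; exact permutation p = 0.5). The difference was -0.29 without tofogliflozin replicate 2, -0.03 without tofogliflozin replicate 3 and -0.63 without tofogliflozin replicate 1. No hairpin passed an adjusted p of 0.05 (0 of 74, 0%), and 1 (1.35%) had an unadjusted p under 0.05 by limma.

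Among the 74 hairpins with at least 50 mean counts in the weaker arm, miR-21a had the most unequal arms, with a mean log2 ratio of 12.4 ± 0.428 (SD, n = 6 libraries). The next were miR-10b at 10.8 and miR-30d at 10.7, and the median over hairpins was 4.11 in either direction. The filter decides this order in part, since a hairpin whose weaker arm has fewer reads is left out. With at least 10 mean counts in the weaker arm, miR-21a had rank 3 of 111 hairpins.

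**Figure D4:**
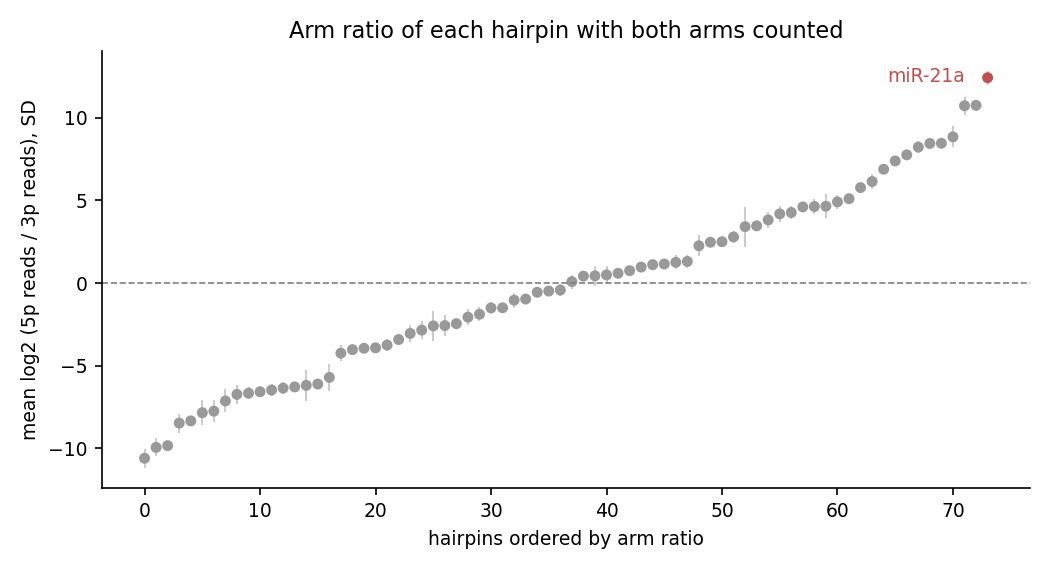
Mean log2 ratio of 5p to 3p reads over the 6 libraries for 74 hairpins with arms paired by name, ordered by ratio, with the SD as bars. miR-21a, in red at 12.4, is at the upper end, and 37 hairpins are above 0 and 37 below.

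miR-21c followed miR-21a-5p very closely. It made up 0.546%, 0.546% and 0.540% of the reads of both names in the tofogliflozin libraries, against 0.544%, 0.520% and 0.544% in the diet-only libraries. Over the 6 mice this share had a coefficient of variation of 1.87%, while the share of miR-21a-5p in all counts had one of 21.6%. Tofogliflozin and diet-only mice differed by 0.02 in the log2 ratio of miR-21c to miR-21a-5p (exact permutation p = 0.5), with a value of 0.02 when tofogliflozin replicate 2 was left out and of -0.00047 when diet-only replicate 2 was. As the names have the first 15 bases in common, reads could be divided between them in the authors' counting, a step that the sources used here do not describe. Whether this touched the level of miR-21c was not tested, and that level is uncertain. Taken by seed, both names together came to 19928, 27763 and 14451 CPM with tofogliflozin and to 27922, 23487 and 23800.1 CPM on the diet alone, of which miR-21a-5p made up 99.5% in each library.

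miR-21b followed it less closely. Its share of the reads of miR-21b and miR-21a-5p was 0.0321%, 0.0497% and 0.0396% with tofogliflozin, against 0.0388%, 0.0441% and 0.0442% on the diet alone, with a coefficient of variation of 14.5% over the 6 mice. The exact 95% intervals of tofogliflozin replicate 1 (0.0257% to 0.0396%) and replicate 2 (0.0400% to 0.0609%) did not meet. The shares of the other 4 libraries lay between the shares of these replicates (0.0321% and 0.0497%), each inside 1 of the intervals. The log2 ratio of miR-21b to miR-21a-5p differed by -0.08 between the groups (exact permutation p = 0.8). This was -0.24 without tofogliflozin replicate 2 (exact permutation p = 0.3) and 0.08, in the other direction, without tofogliflozin replicate 1. The smallest p that 3 against 3 mice allow in this test is 0.1. miR-21b is identical to miR-21a-5p over 13 bases in a row, positions 5 to 17, so its reads are also not certain to be separate.

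**Figure D5:**
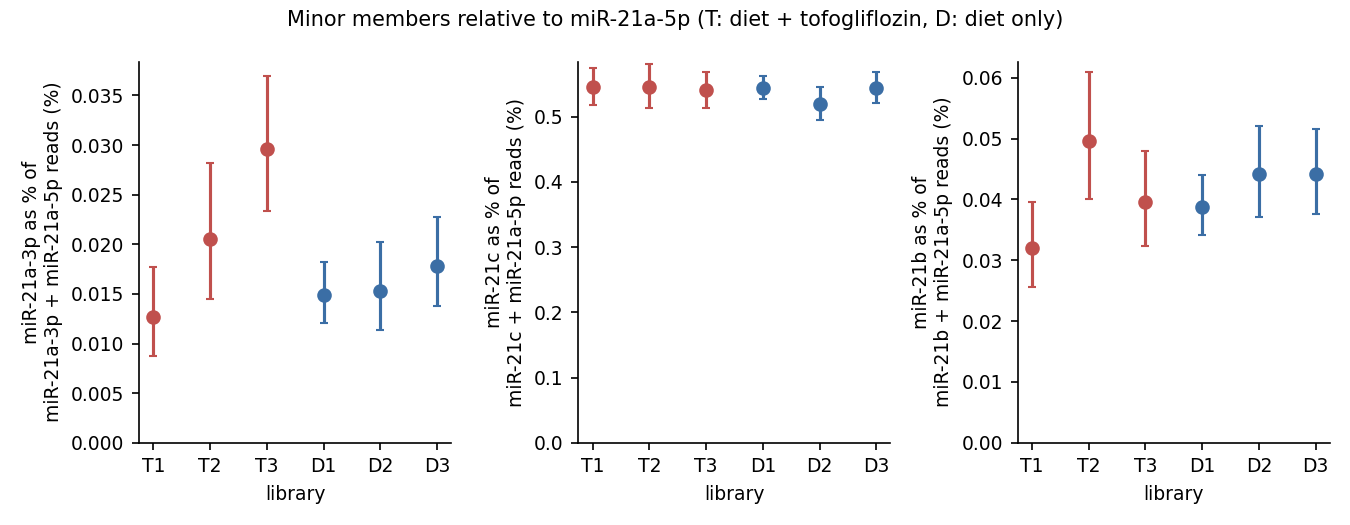
Reads of miR-21a-3p, miR-21c and miR-21b as a percentage of their sum with miR-21a-5p in each library, with exact 95% binomial intervals, diet + tofogliflozin (T) left of diet only (D). The miR-21c share lies between 0.520% and 0.546% in every library, while the miR-21a-3p share runs from 0.0127% to 0.0296%.

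The spread of miR-21a-5p was large for a miRNA of its abundance. The SD of its log2 CPM over the 6 libraries was 0.36, rank 9 among the 59 tested miRNAs with at least 1000 CPM, whose median was 0.18. Over all tested miRNAs the median SD was 0.34, and miR-21a-3p and miR-21b had 0.37 and 0.48 on this scale.

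The miRNAs with the most similar profile over the 6 libraries were named by the root mean square difference of log2 CPM after centring each miRNA, among 246 tested miRNAs of at least 10 CPM outside the family. By this measure they were miR-183-5p (0.13), miR-16-1-3p (0.15), miR-669c-5p (0.17), miR-195a-3p (0.19) and miR-194-2-3p (0.19), where the median was 0.38. Within the family miR-21c was at 0.03, miR-21b at 0.19 and miR-21a-3p at 0.39. The 5 libraries without tofogliflozin replicate 2 kept 2 of the 5 names, miR-183-5p at rank 1 and miR-16-1-3p at rank 4. miR-183-5p, from the miR-183, miR-96 and miR-182 cluster, was at 7.32, 7.69 and 7.03 log2 CPM with tofogliflozin and at 8.01, 7.78 and 7.79 on the diet alone, all 3 tofogliflozin mice below all 3 diet-only mice, as for 32 of 460 tested miRNAs (6.96%). Its log2 fold change was -0.50 (adjusted p = 0.854 by edgeR), -0.68 without tofogliflozin replicate 2 and -0.32 without tofogliflozin replicate 3. Depth and tofogliflozin replicate 2 are shared by all of these profiles.

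Other miRNAs described in the settings where miR-21 is known were read beside it. Of 17 miRNAs described as raised in injured or fibrotic kidney, 14 were tested, with 8 above and 6 below 0 and a median log2 fold change of 0.05, against -0.01 over all tested miRNAs. Without tofogliflozin replicate 2 there were 5 above and 9 below, and the median was -0.03. miR-146a-5p, induced by NF-κB and acting back on its pathway, was at 1266 CPM with tofogliflozin and 1912 CPM on the diet alone, a log2 fold change of -0.60 ± 0.22 (SE; adjusted p = 0.854 by edgeR). This value was -0.27 without diet-only replicate 2. miR-382-5p, of the imprinted Dlk1-Dio3 cluster, was at -0.79 ± 0.41 (SE, adjusted p = 0.854 by edgeR). Its level was low, 0.925 CPM with tofogliflozin and 1.66 CPM on the diet alone, and its groups overlapped.

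The list of other miRNAs for which Ppara is a described target had 10 tested members, 7 above and 3 below 0 (median 0.03; 0.01 without tofogliflozin replicate 2). miR-20b-5p, of the miR-106a-363 cluster, was at 0.69 ± 0.29 (SE; unadjusted p = 0.0428, adjusted p = 0.854 by edgeR) and at 0.36 without tofogliflozin replicate 2. miR-22-3p, an abundant miRNA of metabolic tissues, was at -0.24 ± 0.11. Of 8 antifibrotic miRNAs of the miR-29 and miR-200 families, 3 had values above and 5 below 0 (median -0.15), a median that was -0.01 without tofogliflozin replicate 2. The epithelial miRNAs miR-200c-3p and miR-429-3p were at 0.31 ± 0.17 and -0.16 ± 0.11, and miR-200c-3p was at 0.12 without tofogliflozin replicate 2 and at 0.47 without tofogliflozin replicate 3. No member of these lists passed an adjusted p of 0.05 in edgeR's test.

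Since miR-21 is also expressed in leukocytes, their marker miRNAs were read beside the family. Of 8 leukocyte miRNAs, 1 was above and 7 were below 0 (median -0.30; -0.54 with all 8 below 0 without tofogliflozin replicate 2), and 2 were below 0 at an unadjusted p under 0.05, against 11 of 460 (2.39%). These were miR-147-3p (-1.31 ± 0.38, SE) and miR-146a-5p, both with adjusted p = 0.854 by edgeR. miR-147-3p was at only 2.33 CPM with tofogliflozin and 5.79 CPM on the diet alone. Without diet-only replicate 2, miR-147-3p was at -0.93 and miR-146a-5p at -0.27. The summed level of the 8 was 1334 to 1500 CPM with tofogliflozin and 1576 to 2817 CPM on the diet alone, highest in diet-only replicate 2. Of these sums miR-146a-5p took 86.2% to 92.8%. Without miR-146a-5p the sums were 137, 197 and 132 CPM with tofogliflozin and 146.02, 202 and 148 CPM on the diet alone, and overlapped. None of the 8 was at 0 in any library. The part of leukocytes in the values of miR-21a-5p was not tested.

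Erythroid miRNAs came to 165 to 451 CPM with tofogliflozin and 91.3 to 326 CPM on the diet alone, and endothelial miRNAs to 16203 to 21622 CPM and 18880 to 22979 CPM. Both ranges overlapped between the groups. The erythroid sum counts miR-486-5p and miR-3107-5p, which lie opposite each other and cannot be separated, and it was highest in tofogliflozin replicate 2, where the endothelial sum was lowest.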

How the data were processed

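Small RNA from the renal cortex of 6 mice was sequenced. Per the labels' protocols, the kits were NucleoSpin miRNA for RNA and NEBNext Multiplex Small RNA for libraries. The submitters' processing notes name cutadapt 1.14 and mm10. The sources used here do not give the aligner, counting program or miRBase release. The authors deposited whole-number read counts per library, not normalized, with 2033 rows for 1900 mature names. For 75 names with several rows the largest row in each library was used, and summing was an alternative. Columns of other samples numbered 0.

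Differences were tested in R 4.3.3 with edgeR 4.0.16 (quasi-likelihood F-test, TMM, filterByExpr with a smallest count of 10 and total of 15, Benjamini-Hochberg adjustment over all 460 tested names, threshold 0.05), without covariates. The filter removed at most 0.00905% of a library's counts. SE is the absolute log2 fold change over the square root of F. Log2 CPM used a prior count of 2. Arm ratios used limma 3.58.1 with a pseudocount of 1, and the other ratios and shares used exact 2-sided permutation tests (20 arrangements). The fits were tested on simulated data. A count of 0 allows 0.131 to 0.452 CPM, taking 3 counts as the limit. Per the series' design text there were 3 mice per group. No libraries were identical.

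Alternatives were RLE and upper quartile size factors, other filters, DESeq2 1.42.0, limma-voom, summed rows, a replicate block, other pseudocounts and each library left out. Named miRNAs outside the family were the neighbours in abundance, the 5 nearest profiles and list members with the smallest p (up to 2 per list named, all leukocyte members at an unadjusted p under 0.05). Other names in miRBase were matched for miR-142, miR-486 and miR-3107. The members and lists were chosen with earlier results of these data known.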

Additional observations from a re-analysis of the deposited data

How the results depend on the processing

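The log2 fold changes of miR-21a-5p, miR-21b and miR-21c stayed below 0 and did not pass the threshold under any alternative run. Over the 6 sets of 5 libraries they ran from -0.54 to -0.045, -0.80 to -0.071 and -0.53 to -0.023, and otherwise from -0.34 to -0.23, -0.51 to -0.28 and -0.35 to -0.22. That of miR-21a-3p was -0.081 with limma-voom and -0.021 with the replicate block, and -0.22 to 0.35 over the sets of 5. miR-21a-3p was below 10 CPM in every library, so the filter of 10 CPM in 3 libraries removed it and gave no value. The count of called miRNAs was 10 of 1026 without a filter on low counts and 2 with DESeq2, with 0 members among them, and 0 with each other alternative. Over the sets of 5 the difference in arm ratio was -0.63 to -0.032, that in the miR-21c ratio -0.00047 to 0.033, that in the miR-21b ratio -0.24 to 0.075, and that in the miR-21a-5p share -0.735 to -0.0958 percentage points (-0.298 with summed rows). The cause was not tested.

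Of 222 values of the 16 other named miRNAs, 22 reversed, and miR-146a-5p passed the threshold without the filter (-0.62), as did miR-147-3p (-1.33). miR-194-2-3p was at 0.0018 with RLE, 0.00015 with DESeq2 and 0.032 with summed rows. With upper quartile factors let-7a-5p, miR-378a-3p, miR-669c-5p and miR-195a-3p were at -0.015, -0.0085, -0.048 and -0.0063. Without the filter let-7a-5p was at -0.0054 and miR-669c-5p at -0.024. With limma-voom miR-669c-5p and miR-195a-3p were at -0.063 and -0.017, and with the block miR-669c-5p was at -0.023. Over the sets of 5 libraries the ranges were -0.20 to 0.14 for miR-194-2-3p, -0.024 to 0.10 for miR-378a-3p, -0.080 to 0.39 for miR-30a-5p, -0.23 to 0.18 for miR-669c-5p, -0.18 to 0.24 for miR-195a-3p and -0.057 to 0.11 for let-7a-5p.

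With the replicate number as a block, miR-21a-5p was at -0.32 and 0 miRNAs were called. Same-numbered mice did not deviate together (correlations across miRNAs of 0.0027, -0.14 and -0.17). The few reads of miR-21a-3p limit what can be said of its arm. List counts, other named miRNAs and profiles without tofogliflozin replicate 2 were added after seeing the data.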
